A study of Homo sapiens with 88 samples.

Results

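The genes described here are 8 precursors of neuropeptides: GRP, NMB, CALCA, CALCB, ADCYAP1, GAL, POMC and PENK. Every probe set annotated to one of these genes alone was taken, which gave 14 of the 41091 probe sets with a single gene symbol. The genes were 8 of 19775 with such a probe set, and all 8 were among the 15352 genes tested. They were selected on their DMSO levels and their 552A minus DMSO differences, so both are given below as a description without p-values. The series holds 88 expression arrays (HG-U133 Plus 2.0) from 9 established human small cell lung cancer (SCLC) lines, 45 of cells given 552A and 43 of cells given the vehicle DMSO. Both arms were sampled at days 2, 4 and 7 in NCI-H446, NCI-H146, COLO668, NCI-H510, NCI-H526 and SHP-77, and at day 4 in H69, H2171 and H1417, with 2 to 4 arrays for each line, treatment and day. All cells grew in RPMI with fetal bovine serum, and their passages are labelled only as multiple. The treatment protocol gives 1 µM of the LSD1 inhibitor GSK2879552, which blocks a histone demethylase, but no label equates it with 552A, and the labels do not say which lines are sensitive to the compound. Whether replicate arrays stem from independent cultures is not stated, so errors and p-values measure the spread between arrays, which may be technical.

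Neuropeptides are made as inactive precursors that enter the secretory pathway, where prohormone convertases cut them, carboxypeptidase E trims them and PAM amidates many of them. The released peptides act on G protein-coupled receptors of the same or neighbouring cells. Neuroendocrine cells of the lung make several of them, and gastrin-releasing peptide (GRP) is known as an autocrine growth factor of SCLC.

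Of the neuroendocrine markers measured, 3 were bright in all 9 lines: the mean DMSO level, a log2 signal, was 12.36 to 13.80 for INSM1, 10.78 to 13.57 for CHGA and 10.74 to 12.77 for NCAM1. SYP, at 7.66 to 8.09, lay in the range of markers of other cell types. Of the markers of immune cells, fibroblasts and endothelial cells, PTPRC lay between 3.91 and 5.81, CD3E between 7.49 and 7.93, COL1A1 between 5.68 and 8.59, DCN between 7.39 and 8.02, PECAM1 between 8.06 and 8.40 and VWF between 7.61 and 7.97. Of the 54 pairs of these 6 genes and a line, 2 rose under 552A (3.7%, beside 5.94% of pairs over all genes). They were PTPRC in NCI-H146 (1.06 ± 0.08, SE) and COL1A1 in NCI-H446 (0.41 ± 0.10). Their part in the results of those lines was not tested. Of 36 pairs of a neuroendocrine marker and a line, 6 rose and 10 fell (16.7% and 27.8%, beside 5.94% and 4.38% over all genes). CHGA fell in 5 lines, including NCI-H510, and SYP in 3, while NCAM1 rose in 4 lines and fell in 2 and INSM1 rose in 2. Their part in the results below was not tested. On 5 arrays of day 7 from SHP-77 and COLO668 the gap between the 3' and 5' probe sets of ACTB, which widens as RNA degrades, exceeded 0.8 (highest of the others 0.73), and NCI-H446 DMSO day 4 replicate 2 had an interquartile range of 2.56. Without these 6 arrays 23 pairs of member and line were called, against 22 with them: ADCYAP1 in SHP-77 was lost, and NMB in NCI-H510 and CALCA in NCI-H446 were gained.

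The promoter windows of 5 of the 8 members are given because several members were lower under 552A in the same lines. They were taken from RefSeq's GRCh38.p14 set and hold 300 bases, most of them before a start site, with 2 windows for ADCYAP1. No window of CALCB, GAL or PENK was searched, so whether their promoters hold the motifs below was not tested. PENK was called higher under 552A in 4 lines, so the windows do not represent all members. The windows were searched on both strands for the CRE core TGACG and its reverse complement, to which factors of the CREB and ATF families bind, and for the E-box CANNTG, the motif of basic helix-loop-helix factors. The 3 windows that hold the core are printed 5′ to 3′ with it in capitals: GRP at chr18:59219908-59220207 on the plus strand, CALCA at chr11:14972302-14972601 on the minus strand and ADCYAP1 at chr18:905116-905415 on the plus strand.
GRP: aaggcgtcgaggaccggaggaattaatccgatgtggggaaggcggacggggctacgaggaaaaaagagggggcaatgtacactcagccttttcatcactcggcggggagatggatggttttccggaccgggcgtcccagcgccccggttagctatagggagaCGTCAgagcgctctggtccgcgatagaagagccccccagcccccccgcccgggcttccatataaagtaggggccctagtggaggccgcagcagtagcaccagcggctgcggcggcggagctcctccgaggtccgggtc
CALCA: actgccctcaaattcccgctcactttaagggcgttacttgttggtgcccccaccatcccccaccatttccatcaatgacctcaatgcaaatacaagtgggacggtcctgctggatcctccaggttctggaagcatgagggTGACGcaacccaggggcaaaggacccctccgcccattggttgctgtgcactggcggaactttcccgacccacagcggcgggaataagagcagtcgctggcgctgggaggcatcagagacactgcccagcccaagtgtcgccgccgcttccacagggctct
ADCYAP1: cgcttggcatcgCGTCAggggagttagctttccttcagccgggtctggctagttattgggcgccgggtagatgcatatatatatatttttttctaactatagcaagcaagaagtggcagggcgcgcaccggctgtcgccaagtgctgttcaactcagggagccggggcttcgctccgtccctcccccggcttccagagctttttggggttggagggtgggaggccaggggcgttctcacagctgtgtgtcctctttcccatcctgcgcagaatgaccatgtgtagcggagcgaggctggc

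Counted from the 5′ end, the core starts at base 163 in GRP, 141 in CALCA and 13 in ADCYAP1. It is absent from the windows of NMB and POMC and from the other ADCYAP1 window. Over 35116 RefSeq windows 24.6% hold it. The E-box occurs in 68.7% of windows, with 2 matches in CALCA, 3 in this ADCYAP1 window, 1 in POMC and 0 in GRP and NMB, and no E-box overlaps a core. These matches describe letters only, and factor binding was not measured.

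Under DMSO the members split the lines in different ways. GRP was very bright in NCI-H510 (13.61 ± 0.07, SD, n = 6 arrays) and SHP-77 (13.58 ± 0.12, n = 6), whose arrays overlapped. It was next highest in H1417 (12.25 ± 0.28, n = 2), COLO668 (11.59 ± 0.07, n = 6), H69 (11.09 ± 0.07, n = 2) and NCI-H146 (9.37 ± 0.25, n = 6), and the arrays of neighbours in this order did not overlap. NCI-H446, H2171 and NCI-H526 had means of 6.45, 6.21 and 5.61 with overlapping arrays. For NCI-H526 that is under 6.09, the typical (median) lower quartile of an array. Neuromedin B (NMB), the other bombesin-like peptide, varied less, with line means between 8.22 in H69 and 9.95 in SHP-77.

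CALCA, which encodes calcitonin and the alpha form of calcitonin gene-related peptide (CGRP), was high in 3 lines: SHP-77 (14.47 ± 0.15), COLO668 (13.58 ± 0.07) and NCI-H510 (11.60 ± 0.18; SD, n = 6 arrays each). Its other line means lay between 6.16 and 6.97, so no array of the other lines reached the lowest array of those 3. CALCB, its neighbour on chromosome 11 and the source of beta-CGRP, was highest in SHP-77 (12.34 ± 0.23), followed by NCI-H510 (10.30 ± 0.28), COLO668 (9.67 ± 0.28) and NCI-H146 (9.06 ± 0.22). NCI-H510 overlapped COLO668 and COLO668 overlapped NCI-H146. ADCYAP1, the precursor of the pituitary adenylate cyclase-activating peptide PACAP, was highest in COLO668 (11.33 ± 0.20) and SHP-77 (10.97 ± 0.16), which overlapped, then in NCI-H510 (9.67 ± 0.09) and NCI-H446 (9.05 ± 0.27, n = 7), and its other line means lay between 5.64 and 7.04. Over the 9 line means, which share arrays between genes, the DMSO levels of CALCA had a Pearson r of 0.90 with ADCYAP1 and 0.88 with CALCB, as a description.

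Galanin (GAL), a peptide of endocrine and nerve cells, was high in another set of lines: NCI-H526 (12.49 ± 0.08), NCI-H510 (12.22 ± 0.07), H2171 (11.14 ± 0.11, n = 2) and NCI-H146 (10.91 ± 0.22). Its other means lay between 6.08 and 6.92. PENK, which encodes the enkephalin precursor, was high in NCI-H146 (10.60 ± 0.21), COLO668 (10.35 ± 0.14) and H69 (10.00 ± 0.05, n = 2), and intermediate in H2171 (8.12 ± 0.13, n = 2). POMC, the precursor of ACTH, melanocortins and beta-endorphin, stood out only in H2171 (9.31 ± 0.12, n = 2) and COLO668 (8.65 ± 0.31), with means between 7.01 and 7.58 elsewhere. Every pair of GAL neighbours among its 4 high lines was separate except H2171 and NCI-H146. In the plot of signals by line, CALCA, CALCB and ADCYAP1 share their 3 highest DMSO lines, SHP-77, COLO668 and NCI-H510. No other member has these as its 3 highest, but the high lines of the others overlap with these and with each other. The highest line is NCI-H510 for GRP, SHP-77 for NMB, NCI-H526 for GAL, H2171 for POMC and NCI-H146 for PENK. NMB alone lies above 8 in all 9.

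**Figure D1:**
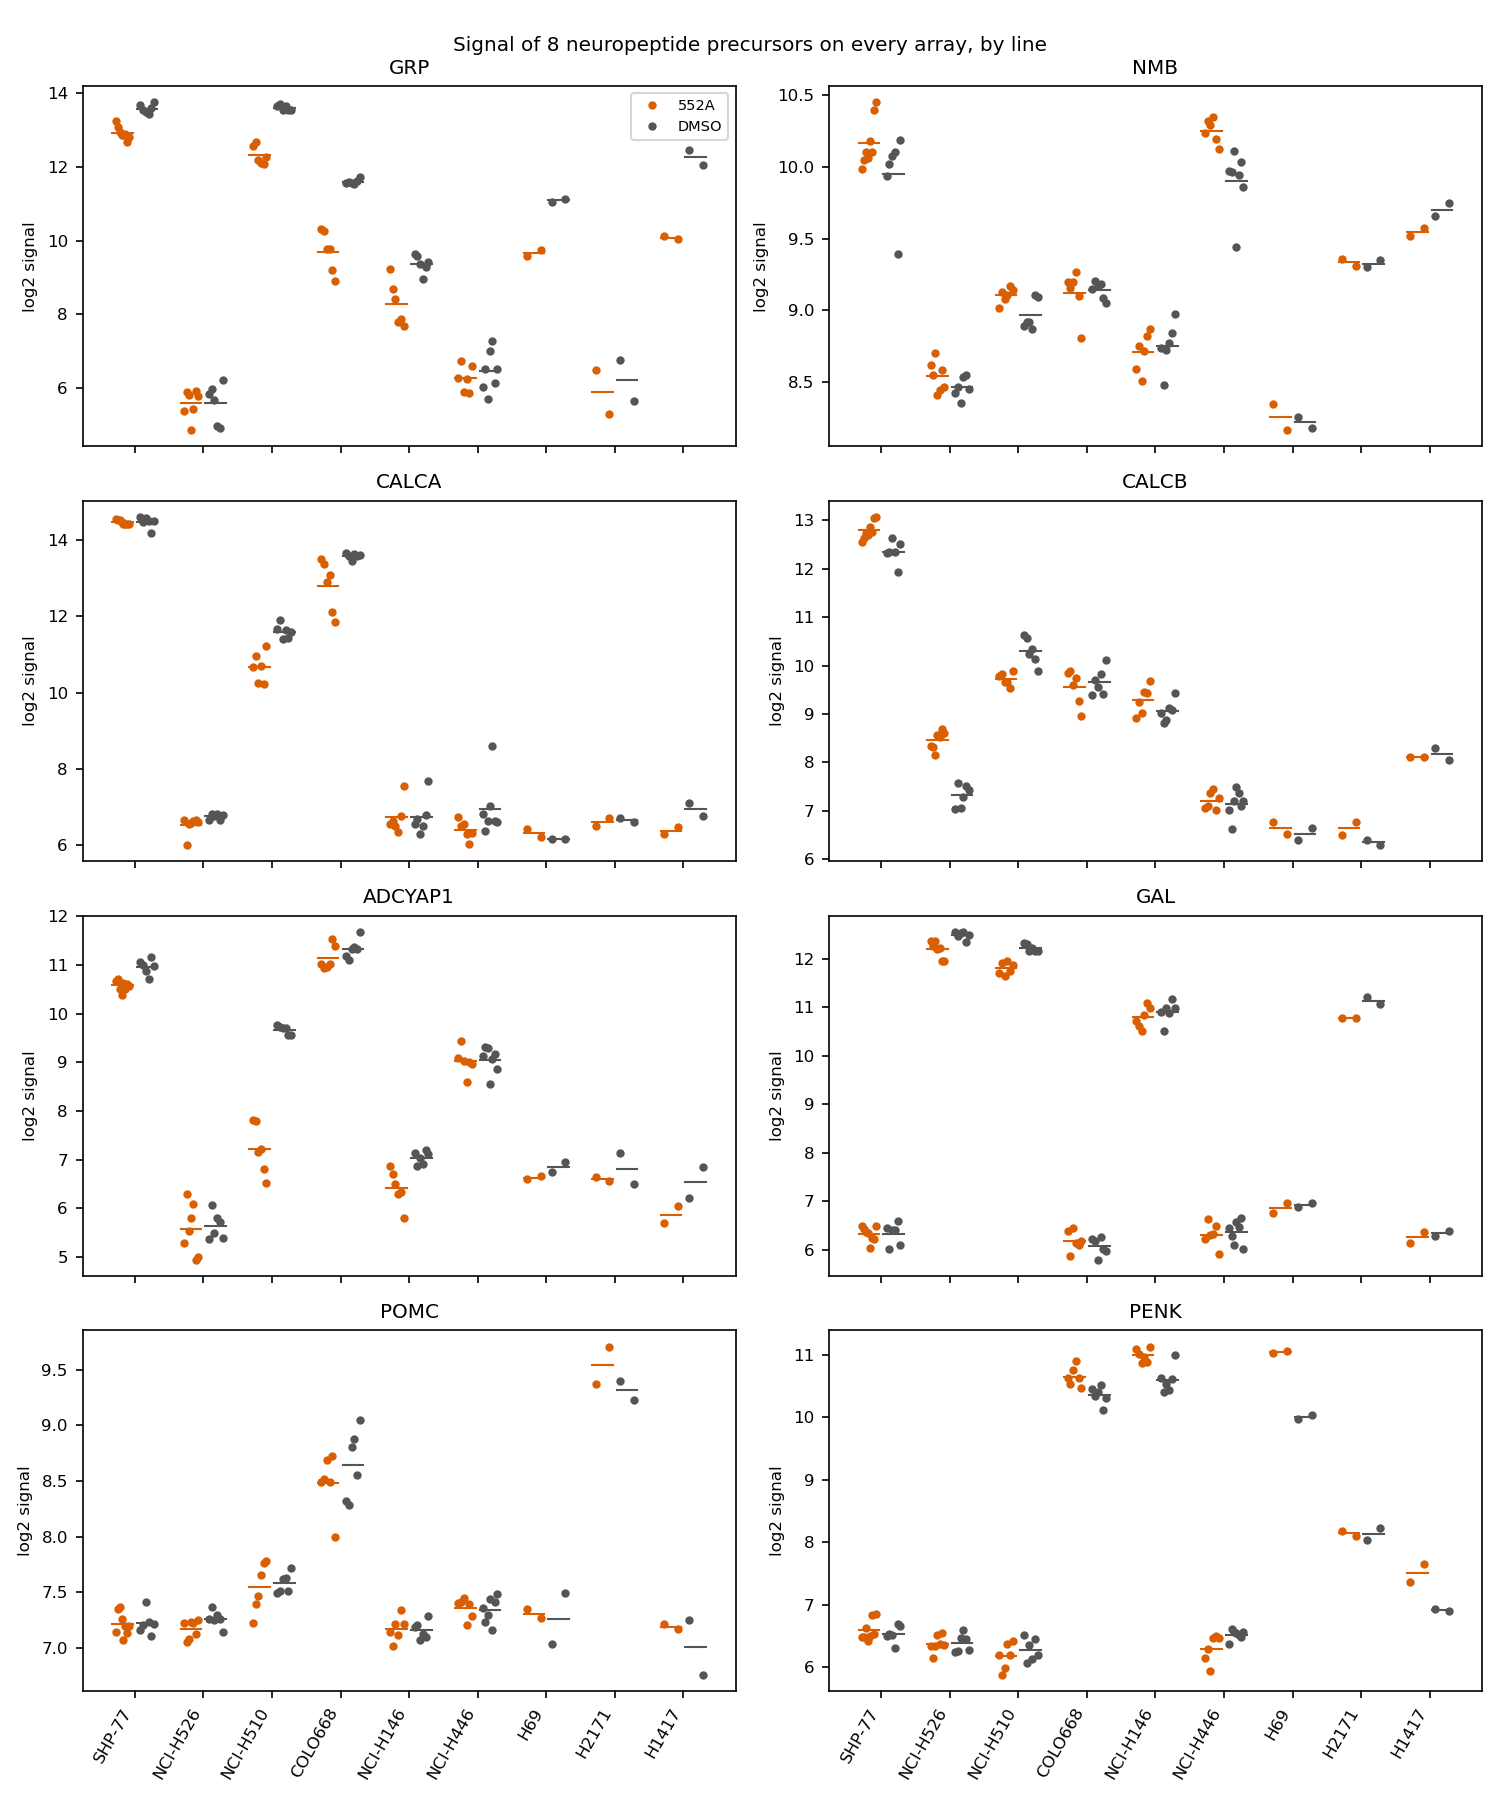
Log2 signal of the 8 precursors (vertical axis) in each of 9 lines (horizontal axis), with a point for each array of 552A (orange, left) and DMSO (grey, right) and a bar at the mean over the arrays of all days. GRP points of 552A lie below all DMSO points in SHP-77, NCI-H510, COLO668, H69 and H1417, and the vertical scale differs between panels.

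552A minus DMSO was called within a line where limma's adjusted p over 15352 genes was below 0.05, with days weighted equally. Of the 72 pairs of member and line, 15 were called lower, 7 higher and 50 not. Over all genes, 4.38% of pairs of gene and line were called lower and 5.94% higher. Because the rule behind the members used this contrast, the members' shares of 20.8% and 9.72% are not evidence about them. In a line, a lower level cannot be told apart between fewer cells that make the RNA and less RNA per cell. NCI-H510 had 5 members called lower, GRP, CALCA, CALCB, ADCYAP1 and GAL, and none higher (all genes 6.44% lower and 8.6% higher). SHP-77 had 2 lower and 1 higher (4.27% and 3.87%), NCI-H526 had 1 of each (10.5% and 10.7%), COLO668 had 2 lower and 1 higher (8.81% and 12.3%), and NCI-H146 had 2 lower and 1 higher (2.12% and 4.27%). H1417 had 2 lower and 1 higher (3.71% and 5.53%), H69 had 1 of each (1.73% and 2.44%), and NCI-H446 had 1 higher and none lower (4.31% and 1.28%). In H2171 none of the 8 was called (0.573% of all genes lower and 1.43% higher).

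**Figure D2:**
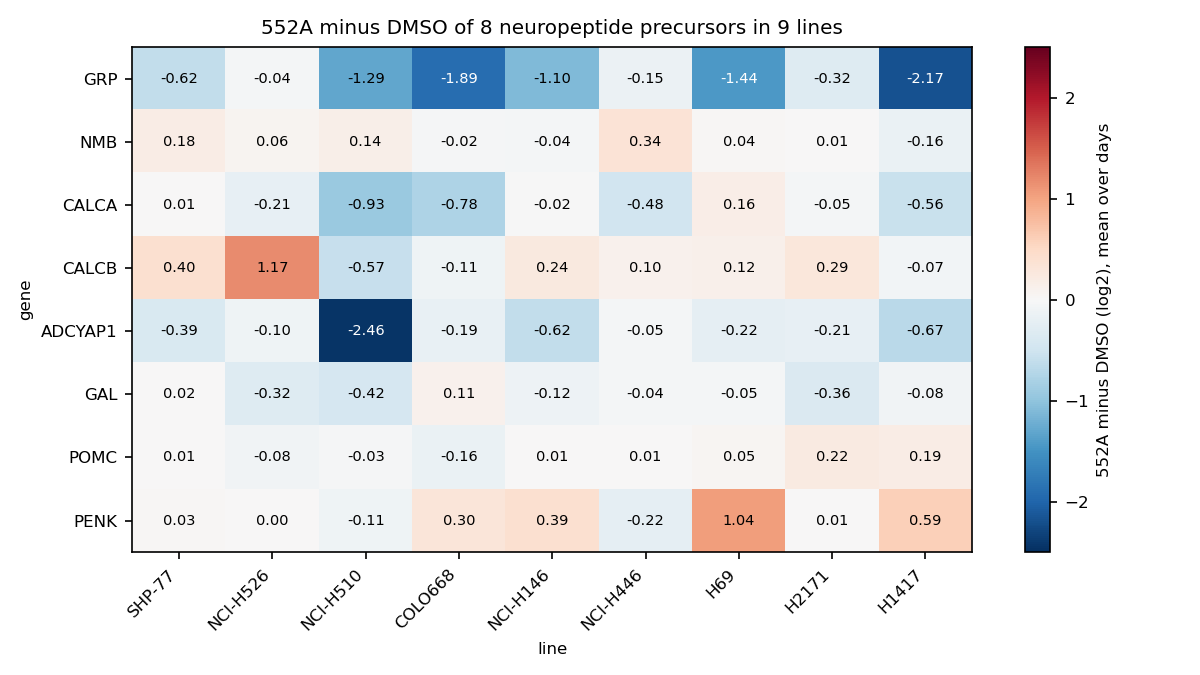
552A minus DMSO on the log2 scale, as the mean over the days of a line, for 8 genes (rows) in 9 lines (columns), with blue for lower and red for higher in 552A. GRP is negative in every line, from -0.04 in NCI-H526 to -2.17 in H1417, and PENK is highest in H69 at 1.04.

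GRP was called lower under 552A in 6 lines, and in the other 3 its difference was below 0 over days but did not pass. Its 552A arrays lay below all DMSO arrays in 14 of 21 pairs of line and day, beside 23% of such pairs over all genes, and in 5 of 9 lines with days pooled, beside 9.88%; the rule behind the members used these arrays. In H1417 at day 4 its log2 signal was 10.12 and 10.04 in 552A arrays, against 12.45 and 12.06 in DMSO arrays, and in H69 it was 9.57 and 9.74 in 552A arrays, against 11.05 and 11.14 in DMSO arrays. The 2 arms did not overlap in either line, and the differences were -2.17 ± 0.33 and -1.44 ± 0.33 (SE, 2 552A and 2 DMSO arrays each), which is 4.51-fold and 2.71-fold lower. The call in H69 was lost without 552A replicate 1. In COLO668 the signals were 10.30 and 10.26 in 552A arrays, against 11.57 and 11.59 in DMSO arrays at day 2. At day 4 they were 9.76 and 9.76 in 552A arrays, against 11.55 and 11.52 in DMSO arrays. At day 7 they were 9.21 and 8.90 in 552A arrays, against 11.61 and 11.72 in DMSO arrays. The 552A arrays of COLO668 lay below all its DMSO arrays, and the DMSO arrays stayed within 11.52 to 11.72, so that the gap widened at each later day (-1.30, -1.78 and -2.61 at days 2, 4 and 7; -1.89 ± 0.19 over days, SE, 6 552A and 6 DMSO arrays, 3.72-fold lower).

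NCI-H510 had GRP signals of 12.56 and 12.66 in 552A arrays, against 13.66 and 13.72 in DMSO arrays at day 2. At day 7 they were 12.09 and 12.28 in 552A arrays, against 13.54 and 13.55 in DMSO arrays. All 6 of its 552A arrays lay below all 6 DMSO arrays, with day differences of -1.08, -1.43 and -1.36 and -1.29 ± 0.19 over days (SE). In SHP-77, which had a similar DMSO level, GRP was 12.87, 12.90, 12.67 and 12.80 in 552A arrays, against 13.58 and 13.75 in DMSO arrays at day 7, again without overlap, but the difference over days was smaller (-0.62 ± 0.18, 8 552A and 6 DMSO arrays). The SHP-77 call was lost when any 1 of 4 arrays was left out (DMSO day 2 replicate 1, DMSO day 4 replicate 1, 552A day 2 replicate 2 or 552A day 4 replicate 2), and was kept without the 6 doubtful arrays. NCI-H146 had 7.87 and 7.67 in 552A arrays, against 9.29 and 9.43 in DMSO arrays at day 7. There the day differences grew (-0.65, -1.05 and -1.59), and 552A arrays lay below DMSO arrays within each day although the arms overlapped across days (-1.10 ± 0.19).

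The 3 lines not called for GRP were those with the lowest DMSO levels. NCI-H446 differed by -0.15 ± 0.18, H2171 by -0.32 ± 0.33 and NCI-H526 by -0.04 ± 0.18 (SE). The sign turned with the day in NCI-H446 (0.24, -0.59 and -0.09 at days 2, 4 and 7) and in NCI-H526 (-0.21, -0.19 and 0.28). In H2171 the arrays were 6.48 and 5.30 in 552A arrays, against 6.76 and 5.66 in DMSO arrays, and replicate 1 was the higher in each arm, so its sign rests on which array is kept: -0.91 without 552A replicate 1 and 0.28 without 552A replicate 2. In NCI-H526 both arms were at or near the dim range, with array values from 4.86 to 6.23. At day 4 the mean over the 9 lines was -1.06 (SE 0.23 over lines, lower in 9 of 9). Over the 6 time course lines the mean was -0.57 ± 0.23 at day 2, -0.93 ± 0.24 at day 4 and -1.04 ± 0.43 at day 7 (SE, n = 6 lines).

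**Figure D3:**
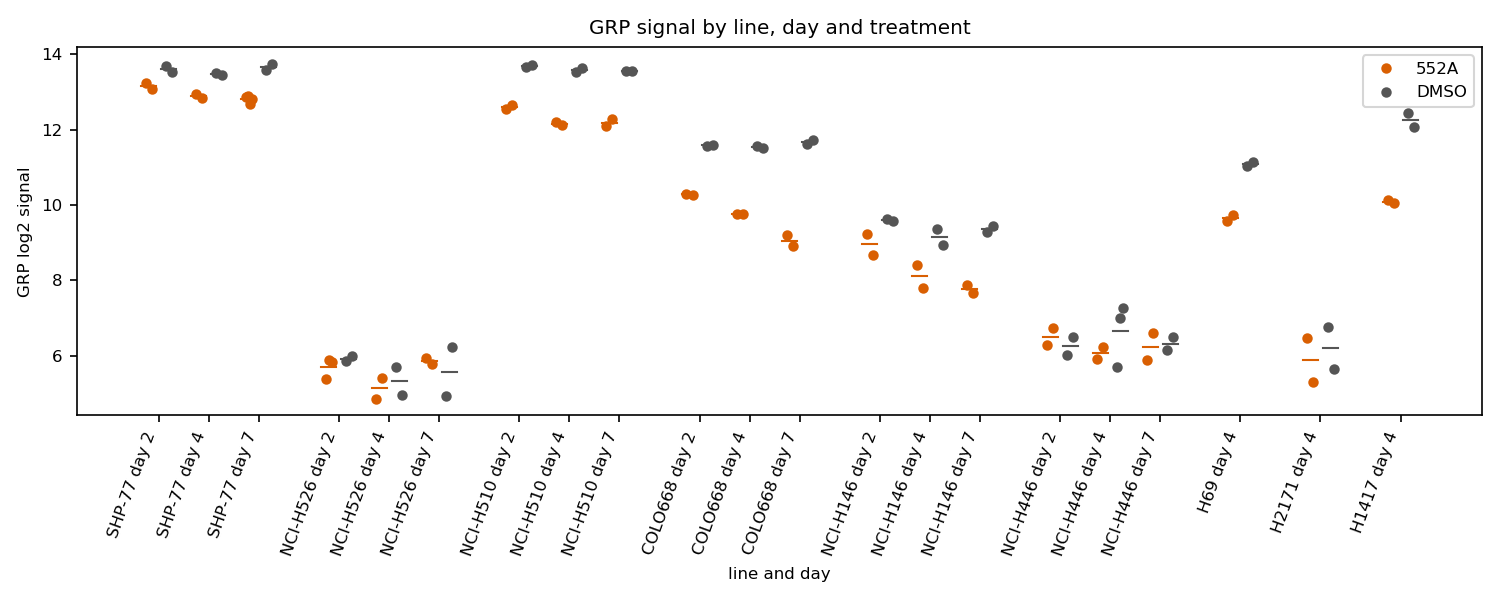
GRP log2 signal (vertical axis) on each array, by line and day (horizontal axis), with 552A in orange at the left and DMSO in grey at the right of each position and bars at the group means. In COLO668 and NCI-H146 the 552A arrays lie further below DMSO at each later day, while NCI-H526, NCI-H446 and H2171 lie between 4.86 and 7.27 in both arms.

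NMB, which acts on the neuromedin B receptor, was called in 1 line. NCI-H446 had 10.29 and 10.34 in 552A arrays, against 10.11, 9.44 and 9.94 in DMSO arrays at day 4. All of its 552A arrays lay above all its DMSO arrays, with a difference of 0.34 ± 0.08 (SE, 6 552A and 7 DMSO arrays). DMSO day 4 replicate 2, 1 of the 6 doubtful arrays, was the lowest DMSO array at 9.44, and the others lay between 9.86 and 10.11. In the other 8 lines the difference ranged from -0.16 to 0.18. Without the 6 arrays NMB was also called in NCI-H510.

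CALCA was called lower in NCI-H510 and COLO668, which are 2 of its 3 high lines. In NCI-H510 its signals were 10.25 and 10.69 in 552A arrays, against 11.40 and 11.63 in DMSO arrays at day 4. All 552A arrays lay below all DMSO arrays of this line, and the day differences were -0.95, -1.04 and -0.79 (-0.93 ± 0.17 over days, SE, 1.9-fold lower). In COLO668 the signals were 13.50 and 13.38 in 552A arrays, against 13.64 and 13.59 in DMSO arrays at day 2. At day 7 they were 12.11 and 11.84 in 552A arrays, against 13.58 and 13.60 in DMSO arrays. The arms were close at day 2 and far apart at day 7, without overlap on any day (-0.18, -0.54 and -1.61 at days 2, 4 and 7; -0.78 ± 0.17 over days). SHP-77, the line with the highest level, differed by 0.01, with all 14 arrays between 14.19 and 14.59. The highest signal of any probe set on these arrays was 15.01 to 15.14, so CALCA is near the top of the range there, and whether a change could be seen at that level was not tested. In NCI-H446, where CALCA is low, the difference of -0.48 was not called. It was -0.28 without DMSO day 4 replicate 3, which read 8.60, and -0.60 and called without DMSO day 4 replicate 1. It was also called without the doubtful DMSO day 4 replicate 2, and at -0.54 without all 6 doubtful arrays.

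The 4 CALCA probe sets gave the same picture in the lines where the gene was called. In NCI-H510 the differences ranged from -1.15 to -0.93, and in COLO668 from -0.87 to -0.62. In SHP-77 they ranged from -0.07 to 0.01. In H1417, where CALCA is low, they spread from -0.95 to -0.05. CALCA and CALCB are close paralogs, and whether the probe sets tell them apart was not tested.

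CALCB was called in both directions. NCI-H526, where it is low, had 8.57 and 8.53 in 552A arrays, against 7.07 and 7.28 in DMSO arrays at day 4. All 552A arrays lay above all DMSO arrays in this line, with day differences of 0.97, 1.37 and 1.17 and 1.17 ± 0.10 over days (SE, 7 552A and 6 DMSO arrays, 2.25-fold higher). SHP-77, its highest line, had 12.87, 12.75, 13.05 and 13.06 in 552A arrays, against 11.94 and 12.50 in DMSO arrays at day 7. There it was called higher (0.40 ± 0.10; 0.27, 0.22 and 0.71 at days 2, 4 and 7), with the 552A arrays above the DMSO arrays of the same day and an overlap across days. The low DMSO array of day 7 at 11.94 is the doubtful replicate 1, and without it the difference was 0.31 and not called, while without all 6 doubtful arrays it was 0.35 and called. NCI-H510 went the other way (-0.57 ± 0.10), with 9.79 and 9.83 in 552A arrays, against 10.62 and 10.56 in DMSO arrays at day 2, and its difference narrowed with time (-0.78, -0.62 and -0.30). Its DMSO means fell over days 2, 4 and 7 (10.59, 10.29 and 10.01), while its 552A means were 9.81, 9.67 and 9.71. COLO668, not called, had differences of 0.33, -0.02 and -0.65 at days 2, 4 and 7.

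ADCYAP1 showed the largest single difference of the 8 genes, in NCI-H510. Its signals there were 7.81 and 7.80 in 552A arrays, against 9.77 and 9.72 in DMSO arrays at day 2. At day 4 they were 7.16 and 7.22 in 552A arrays, against 9.71 and 9.70 in DMSO arrays. At day 7 they were 6.80 and 6.51 in 552A arrays, against 9.56 and 9.57 in DMSO arrays. Every 552A array lay below every DMSO array by more than 1.7, and the day differences were -1.94, -2.51 and -2.91 (-2.46 ± 0.12 over days, SE, 6 552A and 6 DMSO arrays, 5.49-fold lower). The second ADCYAP1 probe set gave -1.74 in the same line.

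ADCYAP1 was called lower in 3 more lines. They were H1417 (-0.67 ± 0.22), NCI-H146 (-0.62 ± 0.12) and SHP-77 (-0.39 ± 0.12; SE). In H1417 and NCI-H146 its DMSO means, 6.53 and 7.04, were already below the median of all values, 7.41, and its 552A means were 5.86 and 6.42. Signals that low limit what a difference can show. In NCI-H146 the day differences were -0.22, -0.56 and -1.09, with 552A arrays below DMSO arrays on each day. In H1417 the value moved to -0.99 without DMSO replicate 1 and to -0.35 without DMSO replicate 2, the call was lost without DMSO replicate 2 or 552A replicate 1, and the second probe set gave -0.16 there and -0.27 in NCI-H146. In SHP-77 the second set gave -0.49, and the call was lost without the 6 doubtful arrays and without any 1 of 7 single arrays. In COLO668, its highest line, the difference was -0.19 ± 0.12 and was not called.

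**Figure D4:**
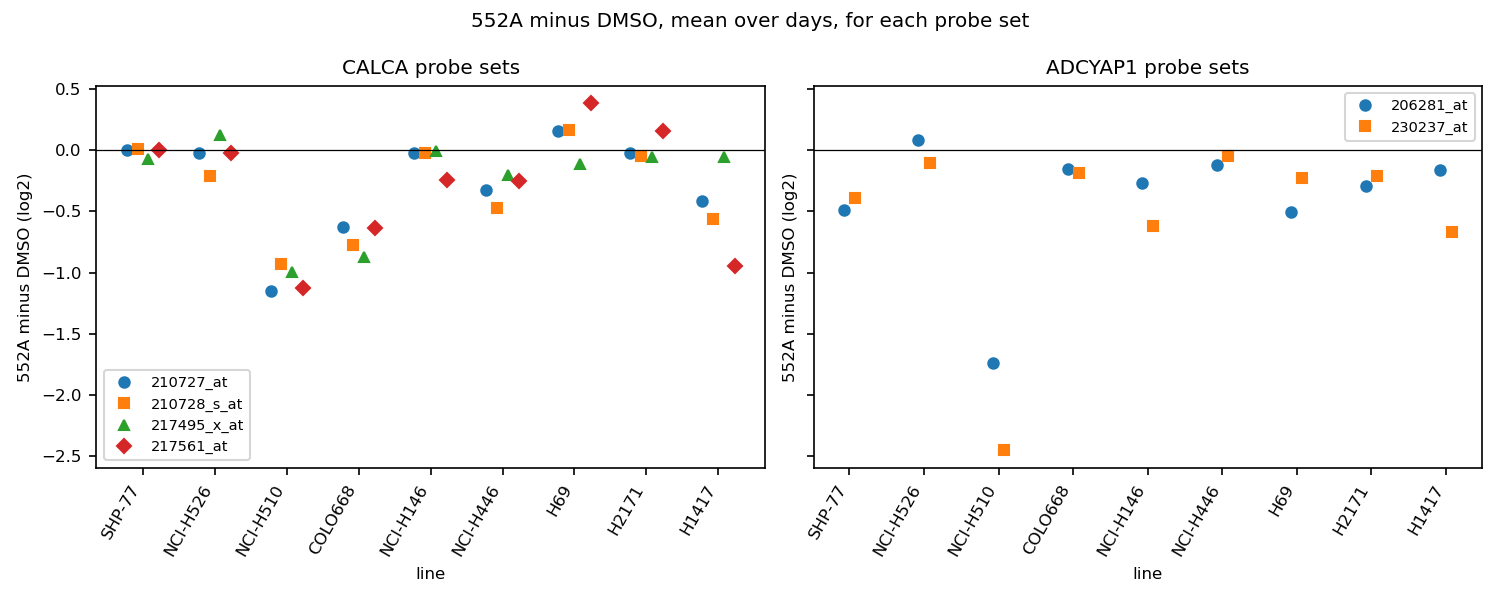
552A minus DMSO on the log2 scale, as the mean over the days of a line, for each probe set of CALCA (left panel) and ADCYAP1 (right panel) in 9 lines (horizontal axis), with a symbol for each probe set. In NCI-H510 all 4 CALCA sets lie between -1.15 and -0.93, and both ADCYAP1 sets lie at -1.74 and below.

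**Figure D5:**
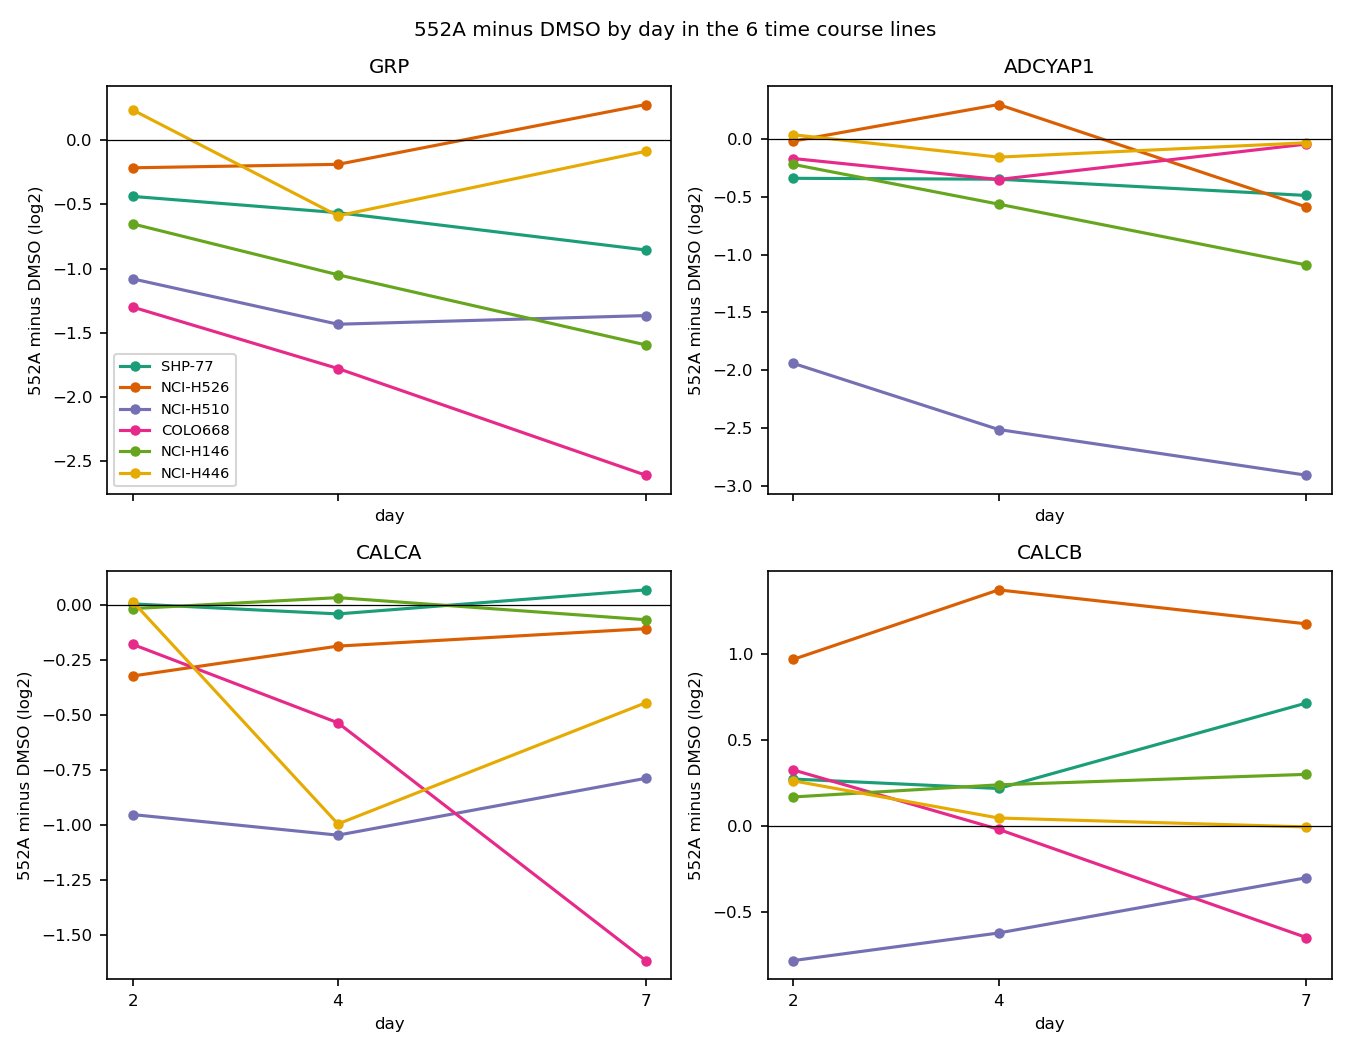
552A minus DMSO on the log2 scale (vertical axis) at days 2, 4 and 7 (horizontal axis) for GRP, ADCYAP1, CALCA and CALCB, with a line for each of the 6 time course lines. GRP in COLO668 reaches -2.61 and CALCA in COLO668 -1.61 at day 7, and CALCB in NCI-H526 stays between 0.97 and 1.37.

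GAL was called lower in 2 of its 4 high lines. In NCI-H510 the signals were 11.65 and 11.96 in 552A arrays, against 12.15 and 12.22 in DMSO arrays at day 4. In NCI-H526 at day 7 they were 11.95 and 11.95 in 552A arrays, against 12.35 and 12.48 in DMSO arrays. The differences were modest, -0.42 ± 0.10 in NCI-H510, where no 552A array reached a DMSO array, and -0.32 ± 0.10 in NCI-H526 (SE), where the arms overlapped across days but not within a day. In H2171 the arrays read 10.78 and 10.77 in 552A arrays, against 11.21 and 11.06 in DMSO arrays, without overlap, and the difference of -0.36 ± 0.18 was not called. In NCI-H146 the difference was -0.12 ± 0.10. The second GAL probe set was dim, between 5.49 and 7.86 on all arrays.

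The opioid precursor PENK was higher in 4 lines. H69 had 11.02 and 11.05 in 552A arrays, against 9.97 and 10.04 in DMSO arrays, and H1417 had 7.36 and 7.64 in 552A arrays, against 6.93 and 6.90 in DMSO arrays, both at day 4. Neither line's arms overlapped, and the differences were 1.04 ± 0.14 (2.05-fold higher) and 0.59 ± 0.14 (SE, 2 552A and 2 DMSO arrays each). The call in H1417 was lost without 552A replicate 2. In NCI-H146 (0.39 ± 0.08) and COLO668 (0.30 ± 0.08) PENK was also called, with 552A above DMSO on every day in COLO668 and an overlap at day 7 in NCI-H146. The second PENK probe set lay between 7.26 and 8.05 on all arrays and gave 0.15 in H69 and -0.26 in H1417. As the mean of both sets, PENK differed by 0.59 in H69, 0.16 in H1417, 0.19 in NCI-H146 and 0.16 in COLO668. In H2171 PENK differed by 0.01. POMC was not called in any of the 9 lines, with differences from -0.16 in COLO668 to 0.22 in H2171. In COLO668 it was called lower without DMSO day 7 replicate 1 or without 552A day 7 replicate 1.

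The same comparison was made with the line as the replicate at day 4, where limma called 8 genes, 0.0521% of those tested, and 0 of the 8 members. The means over 9 lines, as a description, were -0.52 for ADCYAP1 (SE 0.26, lower in 8 of 9 lines), -0.36 for CALCA (SE 0.15, lower in 7) and -0.15 for GAL (SE 0.07, lower in 8), beside the mean for GRP given above. PENK had 0.23 (SE 0.14), CALCB 0.18 (SE 0.17), NMB 0.05 (SE 0.06) and POMC 0.02 (SE 0.05). The ADCYAP1 mean rested largely on NCI-H510 at -2.51, since the other lines lay between -0.67 and 0.30.

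The DMSO arm at day 7 against day 2 is a contrast that the rule behind the members does not name, and tests are given for it. It shares DMSO arrays with the values that the members were selected on, so its p-values are not independent of that choice. POMC in COLO668 was the 1 member called in the 6 time course lines, while 2.44% of all pairs of gene and line were called. It had a mean of 8.80 at day 7 and 8.30 at day 2, a rise of 0.50 ± 0.14 (SE, limma adjusted p = 0.0292). The arrays were 8.55 and 9.04 at day 7 and 8.32 and 8.29 at day 2, and did not overlap. The rise was no longer called without DMSO day 2 replicate 1 (0.51, adjusted p = 0.151) or day 2 replicate 2 (0.48, adjusted p = 0.140). It was 0.25 with an adjusted p of 0.595 without DMSO day 7 replicate 2, and 0.74 with an adjusted p of 0.00178 without DMSO day 7 replicate 1. Without the 6 doubtful arrays, of which day 7 replicate 1 is one, the adjusted p was 0.000119, and CALCB was called too, at -0.58 in NCI-H510 (adjusted p = 0.0189) and 0.58 in COLO668 (adjusted p = 0.0180). The same ACTB gap in COLO668 averaged 0.70 at day 7 and 0.55 at day 2, and its part in the result was not tested.

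GRP did not pass in any of the 6 lines, with day 7 minus day 2 in DMSO between -0.34 in NCI-H526 and 0.08 in COLO668. Tested with the line as the replicate, limma called 0 members and 0 had an unadjusted p below 0.05, while 1 gene of 15352 (0.00651%) was called. The mean for GRP was -0.09 ± 0.07 (SE, n = 6 lines, limma adjusted p = 0.693). Whether the lines differed in this change was tested with limma's moderated F test, and none of the 8 genes passed (adjusted p from 0.0887 for CALCB to 0.959 for GRP).

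The receptors of these peptides were described from a list of 22 genes, of which 15 were tested. Over 135 pairs of gene and line, 4 rose and 8 fell (2.96% and 5.93%, beside 5.94% and 4.38% over all genes). The median difference was -0.03, beside -0.00116 over all genes and lines. GRPR, the receptor of GRP, did not pass in any line, and is named here for its role, with a shared difference of -0.02 at day 4 (adjusted p = 0.907). RAMP2, a partner of the calcitonin receptor-like receptor, rose by 0.52 ± 0.13 in H69 (SE, limma adjusted p = 0.00726). MC4R, a melanocortin receptor, was at -0.44 in H69 and did not pass (adjusted p = 0.107). The genes that follow were named after their values were seen. BRS3, an orphan receptor related to those of bombesin, rose in H69 (0.74 ± 0.11) and fell in H2171 (-0.43 ± 0.11). RAMP1, which forms the CGRP receptor, rose in COLO668 (0.48 ± 0.07) and NCI-H146 (0.45 ± 0.07) and fell in NCI-H526 (-0.20 ± 0.07). ADCYAP1R1, the PACAP receptor, fell in NCI-H526 (-0.51 ± 0.10) and NCI-H446 (-0.32 ± 0.10), and OPRK1, the kappa opioid receptor, in NCI-H510 (-0.73 ± 0.11). The other decreases were RAMP3, VIPR2 and GALR3 in COLO668, from -0.24 to -0.18. Without SHP-77 DMSO day 7 replicate 2 the count of increases was 7, as it was without the 6 doubtful arrays.

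Of 14 listed genes for the cutting and modification of precursors, 12 were tested. The prohormone convertase genes PCSK1 and PCSK2 had no probe set annotated to them alone, so the counts below leave them out. In 108 pairs 0 rose and 9 fell by limma (0% and 8.33%, beside 5.94% and 4.38% over all genes), with a median of -0.04. Of the 9, 5 lay in NCI-H510, where 6.44% of all genes were called lower. At an unadjusted p below 0.05, 2 of the 108 pairs were higher and 21 lower. Without NCI-H446 DMSO day 4 replicate 2, a doubtful array, 14 pairs fell and 1 rose, and without all 6 such arrays 16 fell and 2 rose. PAM, which amidates peptides including GRP and galanin, fell in 4 lines: H1417 (-0.92 ± 0.11, adjusted p = 3.17e-09), NCI-H510 (-0.50 ± 0.06), NCI-H146 (-0.47 ± 0.06) and COLO668 (-0.26 ± 0.06; SE). From the arrays of H1417 alone, its change there had an adjusted p of 0.1004. Its change differed between lines by limma's F test (adjusted p = 1.82e-10). QPCT, which forms N-terminal pyroglutamate, fell by 0.57 ± 0.19 in NCI-H510 (limma adjusted p = 0.0256), and passed on none of days 2, 4 and 7 alone.

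Among 61 other peptide precursors listed, 37 were tested. In 333 pairs 15 rose and 15 fell (4.5% each, beside 5.94% and 4.38% over all genes), with a median of -0.00349. SST, the somatostatin precursor, fell in NCI-H510 by 1.10 ± 0.12 (SE, limma adjusted p = 1.56e-10), with means of 10.16 in 552A arrays, against 11.25 in DMSO arrays, and also fell in COLO668 and SHP-77. At day 2 alone its difference in NCI-H510 was -0.49 with an adjusted p of 0.285. GHRL, the ghrelin precursor, fell in H2171 by 1.21 ± 0.12 (limma adjusted p = 2.08e-10), with 7.42 in 552A arrays, against 8.62 in DMSO arrays (means, n = 2 each). As the mean of its probe sets, the GHRL difference there was -0.64. Both genes differed between lines by limma's F test (adjusted p = 4.02e-11 for SST and 1.40e-08 for GHRL). They were named for a large difference within a line, so this test is not independent of their choice.

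The genes most like GRP were found by Pearson r, as a description without p-values. For 552A minus DMSO over the 21 pairs of line and day, in which the days of a line share its cells, they were RNF183 (r = 0.81), UBE2QL1 (0.81), DBH (0.80), KIAA0087 (0.80) and FBLN7 (0.79), among 1598 genes with an SD of at least 0.3. CALCB ranked 61 of these at 0.61, CALCA 130 at 0.52 and ADCYAP1 364 at 0.32, and PENK had -0.52. For the DMSO level over 9 lines they were NKAIN2, FRG1BP, TTC8 and TMEM47 (each 0.94) and LGSN (0.93), among 11577 genes. By Spearman rho, 2 of the first 5 and 1 of the second 5 were again among the top 5.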

How the data were processed

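RNA from 9 SCLC lines was hybridised to Affymetrix HG-U133 Plus 2.0 arrays by standard Affymetrix procedures, per the labels' protocols. The authors deposited log2 signals of 54675 probe sets on 88 arrays, and the labels and file headers name no program, background correction or scaling. Array medians lay between 7.36 and 7.46, so the values were used as deposited. Arrays have no counts behind them, and their number limits the precision. GEO's platform annotation gave 1 gene symbol to 41091 probe sets, several to 1801 and none to 11721 besides 62 control sets. None of the latter groups was used. Of the Entrez identifiers, 54 had no match in RefSeq, and 0 symbols needed an update. A gene was represented by its probe set with the highest mean, after sets ending in _x_at were put aside where another existed. Genes with no group mean above the median of all values, 7.41, were left out, which kept 15352. limma 3.58.1 in R 4.3.3 fitted 42 group means for line, treatment and day (46 residual and 6.52 prior degrees of freedom). Within a line, 552A minus DMSO averaged the days with equal weight. P-values were two-sided and Benjamini-Hochberg adjusted over all genes tested, separately for each contrast, and below 0.05 a gene was called. The fit was tested on simulated data. Differences shared by lines used 1 log2 ratio a line. Array replicate numbers were compared as possible pairs over the 21 pairs of line and day: same-numbered arrays correlated at -0.40 to 0.49 (median 0.08, above 0.1 in 10), so the numbers were not taken as pairs. No 2 arrays were duplicates (highest correlation 0.998). The genes named were all members. From each other list they were at most 6 genes called with a difference of at least 1, or, where fewer than 2 passed, the 2 with the largest shared day 4 difference. The 5 genes most like GRP in each sense were also named. The members and lists were chosen with earlier results of these data known. Alternatives were quantile normalization, other filters, the mean of a gene's probe sets, a replicate block, an intensity trend, a line's own arrays, single days, and leaving out arrays. Motif searches used Python 3.11.15, and figures used pandas 2.3.3, numpy 2.4.6 and matplotlib 3.10.9.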

Additional observations from a re-analysis of the deposited data

Results flagged for a closer look

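In 13 of 112 sets of 4 to 10 values, 1 value lay far from the others of its set, and chance alone does this in about 1 in 20 sets. NMB read 8.81 on COLO668 552A day 7 replicate 2 (others 9.10 to 9.27), 9.39 on SHP-77 DMSO day 7 replicate 1 (others 9.94 to 10.19) and 9.44 on NCI-H446 DMSO day 4 replicate 2 (others 9.86 to 10.11). POMC read 7.99 on COLO668 552A day 7 replicate 2 (others 8.49 to 8.73), and CALCA 14.19 on SHP-77 DMSO day 7 replicate 1 (others 14.47 to 14.59). These 5 values lie on arrays with a large gap between the 3' and 5' probe sets of ACTB or a narrow spread, and the part of that was not tested. CALCA was also apart on NCI-H526 552A day 2 replicate 2 at 6.02, on COLO668 DMSO day 4 replicate 1 at 13.43 and on NCI-H446 DMSO day 4 replicate 3 at 8.60. In NCI-H146 it was apart on replicate 2 of day 7 in both arms, at 7.56 in 552A and 7.68 in DMSO, while the other arrays lay between 6.37 and 6.77 in 552A and between 6.30 and 6.79 in DMSO. GAL was apart on NCI-H526 DMSO day 7 replicate 1 at 12.35. Over lines at day 4, the CALCB difference of 1.37 in NCI-H526 and the ADCYAP1 difference of -2.51 in NCI-H510 were apart from the other 8 lines. Some members had arms that did not overlap but lay in opposite directions in different lines, and the difference between those lines was not tested. They were NMB (0.34 in NCI-H446 and -0.16 in H1417), CALCA (0.16 in H69, -0.93 in NCI-H510 and -0.56 in H1417) and CALCB (1.17 in NCI-H526, 0.29 in H2171 and -0.57 in NCI-H510). By limma's F test over the 9 lines, the differences of RAMP2 (0.52 in H69, adjusted p = 0.0293), PAM (-0.92 in H1417), GHRL (-1.21 in H2171) and SST (-1.10 in NCI-H510) were unequal between lines. For GHRL and SST, named for a large difference within a line, the test is not independent of that choice.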

How the results depend on the processing

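Of the results that answer a comparison, 248 values under an alternative kept their side or stayed close, 33 moved and 2 were no longer called, and none changed sign while called. For the members' shared day 4 means, close meant a shift below the SD over lines, which leaving out 1 line cannot exceed. No member was called there, so sign changes were not counted. Under some alternative NMB reached -0.00114 and POMC -0.00496, and ADCYAP1 ranged from -0.63 to -0.28. Quantile normalization gave 3 increases among the processing genes, and the stricter filter, which tests 11264 genes, 3 decreases among receptors and 9 increases among other precursors. Without the 6 doubtful arrays 7 receptor pairs rose, 16 processing pairs fell and 2 rose, and 3 member pairs were called in the vehicle comparison. A line's own arrays alone gave 8 increases among receptors, 1 among processing genes, and 0.50 for POMC in COLO668 with a limma adjusted p of 0.336. Day 2 alone gave 4 lower and 2 higher pairs of member and line, and 2 decreases and 2 increases among receptors. It also gave 1 decrease among processing genes, and 3 decreases and 1 increase among other precursors. Day 4 alone gave 9 lower and 4 higher pairs of member and line, 3 decreases among receptors and 8 among other precursors. Day 7 alone gave 9 lower and 3 higher such pairs, 5 decreases and 2 increases among receptors and 1 increase among processing genes. Only the 6 time course lines have days 2 and 7, so those counts cover fewer pairs than the counts over 9 lines. Shares over all genes were not taken for single days, so these counts do not show a dependence on day. The causes were not tested. Leaving out 1 array, where an array left alone is assumed to vary like the other groups, gave 13 to 16 lower and 6 to 8 higher members, 3 to 7 increases among receptors, 8 to 14 decreases and 0 to 1 increases among processing genes, 0 to 2 vehicle calls, and 0.25 to 0.74 for POMC. The NMB range over lines was 1.87 from day 4 alone, and Spearman rho shared 2 and 1 of the 5 genes most like GRP. With the replicate block, 16 pairs of member and line were lower and 7 higher. Of these 23 pairs, 22 were called in both fits, and CALCA in H1417 was gained. POMC in COLO668 kept 0.50 and its call. Signals near the lower quartile, as for GRP in NCI-H526, limit what a difference there can show. The second probe sets of PENK and GAL are dim and test little.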
